A study of Mus musculus with 32 samples.

Results

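Genes of fat cells and of lipid storage were followed in 32 primary mouse melanomas. The 31 genes were taken by name, from adipokines to lipid droplet proteins and the enzymes that make and break down triglyceride. All 31 were found among the 50600 genes of each deposited table, and 30 of them were high enough to be tested, among 17717 genes. The groups held 8 tumours each and were 4 in number: Ecad males, Ecad females, ΔEcad males and ΔEcad females. All mice carried Tyr::NrasQ61K, an oncogenic Nras transgene driven by the tyrosinase promoter, were Cdkn2a-/+, so that 1 copy of this tumour suppressor was lost, and were Cdh1F/F, with floxed alleles of the E-cadherin gene. Ecad mice carried no further transgene (°/°), and ΔEcad mice carried a second Tyr transgene, which the methods of the study give as Tyr::CreA/° and the sample labels as Tyr::NRAS/°. Cre under this promoter acts in the melanocyte lineage, so Cdh1 stays intact in the other cells of a tumour. The mice were on a C57BL/6J background, and tumours were collected at about the same size. The labels used gave no age, body site or batch, and they call each tumour a separate sample of its group.

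Adipocytes store triglyceride in a single large droplet coated by perilipins and enlarged by CIDE proteins. They take up fatty acids freed by lipoprotein lipase, esterify them onto a glycerol backbone, release them again by stepwise lipolysis when adrenergic receptors are stimulated, and secrete hormones such as adiponectin and leptin. PPARγ and C/EBPα together drive this programme. Mouse skin has a layer of dermal fat beneath the dermis and a thin muscle layer, the panniculus carnosus, beneath that. Several of the genes are not restricted to adipocytes: Cd36 and Lpl are also made by muscle and macrophages, Slc2a4 and Car3 by muscle, and Pparg, Dgat2 and Plin genes by other lipid-handling cells such as sebocytes.

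Total counts ranged from 24036333 to 63923086 per tumour. The targeted gene, Cdh1, had a lower median in the libraries labelled ΔEcad male (median 3.29 TPM, range 0.79 to 65.2 TPM) than in Ecad males (median 145 TPM, range 25 to 282 TPM), with ranges that overlapped. In libraries labelled ΔEcad female (median 46.7 TPM, range 0.17 to 143 TPM) its median was above that of Ecad females (median 30.6 TPM, range 2.16 to 151 TPM), and these ranges overlapped as well. Directions in females, and in males too, therefore rest on the labels. The library labelled ΔEcad male 2 had 0 counts over 4 Y-linked genes, against 1459 to 8800 in the other males, and 6.41 TPM of Xist, against at most 0.2 TPM. Among females, ΔEcad female 1 had 92 counts over these Y-linked genes, against at most 4 in the others, and 101 TPM of Xist. The 10 melanocytic markers were above 3 counts in every tumour, and their summed level was between 6796 and 80613 TPM in 31 tumours and 38.4 TPM in ΔEcad male 7. In ΔEcad female 3, the 5 red blood cell markers were at 0 and the 10 endothelial markers summed to 0.88 TPM, against at least 43.8 TPM elsewhere. Member counts and relations with Adipoq are given with and without ΔEcad male 2, ΔEcad male 7 and ΔEcad female 3.

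Sequence upstream of 4 members is shown, since most members moved together from tumour to tumour and since Cebpa was the 1 member called in a comparison. Each of the 4 windows shown holds a match, while those of Pck1, Retn and Cfd hold none. Whether these sequences have a part in the shared variation was not tested. RefSeq promoter windows (GRCm38.p6) were matched for 22 of the 31 members, at 29 start sites. The 250 bases before the start were searched for 7 motifs, on both strands except for TATAAA, which was searched on the strand of the gene only. Capitals below mark the matches: CCAAT in Adipoq (first base at -34, -27 and -7 from the start, the first 2 on the other strand), TTGCNNAA, the letters bound by C/EBP factors, in Lep (-55), AGGTCA, the core site of nuclear receptors, in Adig (-154), and TATAAA in Cebpa (-30).
Adipoq, chr16:23146286-23146535, plus strand: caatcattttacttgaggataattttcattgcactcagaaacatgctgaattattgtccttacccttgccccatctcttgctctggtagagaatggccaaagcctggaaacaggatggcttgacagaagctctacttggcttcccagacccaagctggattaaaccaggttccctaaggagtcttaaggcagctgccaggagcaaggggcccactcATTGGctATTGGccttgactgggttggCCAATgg
Lep, chr6:29059971-29060220, plus strand: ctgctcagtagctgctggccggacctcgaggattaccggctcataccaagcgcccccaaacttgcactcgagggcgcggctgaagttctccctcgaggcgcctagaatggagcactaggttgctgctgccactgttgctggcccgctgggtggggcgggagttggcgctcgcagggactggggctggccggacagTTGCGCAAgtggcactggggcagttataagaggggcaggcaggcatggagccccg
Adig, chr2:158502362-158502611, plus strand: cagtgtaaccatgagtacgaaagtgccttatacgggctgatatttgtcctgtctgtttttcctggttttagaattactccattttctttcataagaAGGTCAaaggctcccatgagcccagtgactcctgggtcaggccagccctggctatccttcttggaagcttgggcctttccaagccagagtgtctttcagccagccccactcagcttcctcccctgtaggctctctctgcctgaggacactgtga
Cebpa, chr7:35119043-35119292, plus strand: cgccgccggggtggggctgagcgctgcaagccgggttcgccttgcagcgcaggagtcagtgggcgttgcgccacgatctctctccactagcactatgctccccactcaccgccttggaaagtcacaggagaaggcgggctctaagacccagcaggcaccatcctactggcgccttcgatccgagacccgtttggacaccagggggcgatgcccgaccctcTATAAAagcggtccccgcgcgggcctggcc

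CCAAT was in 8 of the 29 member windows, of 7 members, and in 33.9% of the 32851 windows of all genes. TTGCNNAA was in 4 member windows (Lep, Cidec, Pparg and Plin1) and in 9.56% of all windows, AGGTCA in 7 windows of 5 members (Adig, Aqp7, Cd36, Pparg and Ucp1) and in 14.0%, TATAAA, on the strand of the gene only, in 1 (Cebpa) and in 7.59%, and CACGTG, the E-box, in 1 (Lipe) and in 6.02%. The repeat AGGTCANAGGTCA, which holds AGGTCA at both ends and is the kind of element PPARγ is known to bind, was in no member window and in 0.0335% of all windows, and its looser form, with any base as the fourth of each copy, was in no member window and in 0.338%. Pparg had 3 windows, and Lipe, Cidec, Aqp7, Acvr1c and Acsl1 had 2 each, which share their gene. These matches describe letters in a short window only.

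Levels differed far more between tumours of 1 group than those of most genes. TPM is a level scaled by gene length and by the total of the tumour, so that levels of different genes can be compared. The 31 members together took 0.0256% of all TPM in ΔEcad female 3 and 1.04% in ΔEcad female 7. Ecad males had a median share of 0.210%, Ecad females of 0.0583%, ΔEcad males of 0.0786% and ΔEcad females of 0.0978%, and all 4 groups overlapped. Cfd alone made up between 0 and 63.2% of that sum. On log2 CPM (counts scaled by library size with TMM factors), the SD within groups had a median of 2.19 over the 30 tested members and of 0.86 over all 17717 genes. It was above the median gene for 26 members and above the 90th percentile for 15, and Cfd (3.86), Pck1 (3.75) and Cidec (3.69) had the widest spread. Pnpla2, Pparg, Acsl1 and Agpat2 lay below the median gene, at 0.77 to 0.85.

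**Figure D1:**
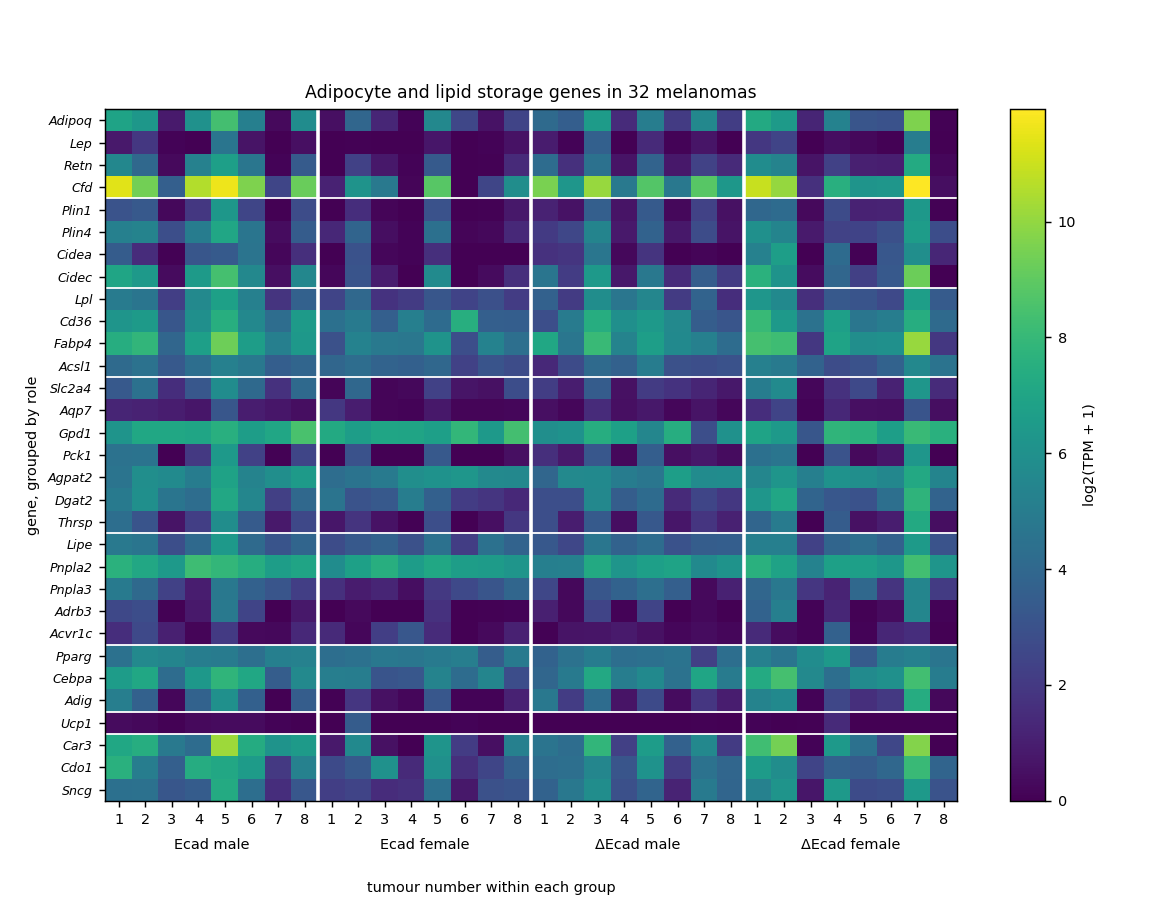
Level of each of the 31 genes (rows, in the order of the text by role) in each of the 32 tumours (columns, numbered within the 4 groups), as log2(TPM + 1) by colour. Most rows are bright in the same columns, such as Ecad male 5 and ΔEcad female 7, and dark in Ecad female 4 and ΔEcad female 8, while Gpd1, Agpat2, Pnpla2 and Pparg are present in every column.

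Which group stood highest depended on whether a mean or a median was taken. By means, 23 members were highest in ΔEcad females, 6 in Ecad males and 2 in Ecad females, and 23 were lowest in Ecad females and 8 in ΔEcad males. By medians, 24 members were highest in Ecad males and 6 in ΔEcad females, and 25 were lowest in Ecad females and 6 in ΔEcad males. ΔEcad female 7 held the highest value of 18 members, Ecad male 5 of 6, and ΔEcad females 2 and 4 of 2 each. Without ΔEcad female 7, which was left out after its values were seen, 7 members had their highest mean in ΔEcad females and 22 in Ecad males. For all 31 members, the TPM of the groups overlapped in every comparison of genotype or sex (0 of 31 without overlap), as for nearly all genes: 0.0339% of the 17717 tested had no overlap between genotypes in females, 0.0282% in males, 0.113% between the Ecad sexes and 0.00564% between the ΔEcad sexes. ΔEcad female 7 and Ecad male 5 also held the highest summed level of 10 skeletal muscle markers in their groups, 28395 and 19888 TPM, against medians of 1170 and 2909 TPM.

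The study compared melanomas with and without Cdh1 in melanocytes in each sex, and 5 comparisons follow from that design. Fold changes above 0 for ΔEcad against Ecad females were fitted for 29 of 30 members and for 8579 of 17717 genes, and fold changes below 0 for ΔEcad against Ecad males for 30 of 30 members and 7247 genes, but Cebpa alone passed the test, in females. Under other settings the fold change took the other sign for Acvr1c, Pnpla2 and Gpd1 in females and for Agpat2, Fabp4, Lep, Sncg and Pnpla3 in males. Fold changes are given as ΔEcad minus Ecad and as female minus male. Calls required an absolute log2 fold change over 1 and an edgeR p below 0.05 after Benjamini-Hochberg adjustment over all genes tested, and members with an unadjusted p under 0.05 were counted as well. In females, 1 of 30 members was called in ΔEcad against Ecad, Cebpa, against 1.2% of all genes called. Another 20 had an unadjusted p under 0.05 and were higher in ΔEcad, which with Cebpa made 21 higher and 0 lower, where 11.2% of all genes were higher and 4.13% lower. The median log2 fold change over members was 2.76, against -0.02 over all genes. In males, 0 members were called, as were 0 genes (0%), and 0 members were higher and 3 lower at an unadjusted p under 0.05, against 7.19% and 3.05% of all genes. Their median was -1.09, against 0.11. Among Ecad tumours, 0 members were called between the sexes, against 0.0508% of genes, and 0 were higher and 18 lower in females at an unadjusted p under 0.05, against 5.71% and 10.3% of genes, with a median of -2.35 against 0.05. Among ΔEcad tumours, 0 were called, against 0.0395% of genes, and 8 were higher and 0 lower in females, against 3.32% and 5.49% of genes, with a median of 1.67 against -0.06. For the interaction, the genotype difference in females minus that in males, 0 members and 0 genes (0%) were called, and 25 members were higher and 0 lower at an unadjusted p under 0.05, against 10.7% and 6.94% of genes, with a median of 4.02 against -0.16. Over all genes, 1814 had an unadjusted p under 0.05 in males and 3131 in the interaction.

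Most members varied together and each group enters several comparisons, so neither the genes of a count nor the counts are independent of each other. The study's own test used DESeq2, which was listed here as an alternative. Here DESeq2 was run without the filter on low counts, so its 33460 genes include genes too low for the edgeR test. Its shares of all genes are therefore not comparable with those of the 17717 genes. DESeq2 called 16 of 31 members higher in ΔEcad females than Ecad females, where it called 4.55% of 33460 genes (1523) in either direction. It called 7 members lower in Ecad females than Ecad males, against 3.4% of genes (1136), and 17 higher in the interaction, against 4.25% (1422). It called 0 members in males, against 0.132% of genes (44), and 0 between the ΔEcad sexes, against 0.102% (34). With limma voom, 0 members were called in each comparison. The share of all genes called by voom is not given here, so this count does not set the members apart from other genes. Single tumours moved the counts. Shares of all genes in the fits without a tumour are not given here, so these counts describe the members only. Without ΔEcad female 7, the females had 10 members in place of 21 at an unadjusted p under 0.05, the ΔEcad sexes 2 in place of 8 and the interaction 18 in place of 25. Without Ecad male 5, the Ecad sexes had 6 in place of 18. Without ΔEcad male 2, whose sex-linked genes went against its label, and likewise without ΔEcad male 7, the males had 0 in place of 3, the ΔEcad sexes 6 in place of 8 and the interaction 24. Without ΔEcad female 3, the females had 3 members called and the interaction 5, and without Ecad female 5 they had 8 and 9. Without ΔEcad male 2, ΔEcad male 7 or ΔEcad female 3, the 77 log2 fold changes printed below shifted by at most 0.21, 0.21 and 0.19. Of the 75 with an unadjusted p under 0.05, 69, 68 and 73 kept it. A tumour with low levels can shift a mean of 8 only slightly, and comparisons without its group barely use it. Such small shifts therefore do not show that the fold changes are stable. Over all settings, the fold change between genotypes in females ranged from 2.19 to 5.39 for Adipoq and from 1.77 to 7.95 for Adrb3. RNA of whole tumours cannot tell fewer cells of a type from less RNA per cell.

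**Figure D2:**
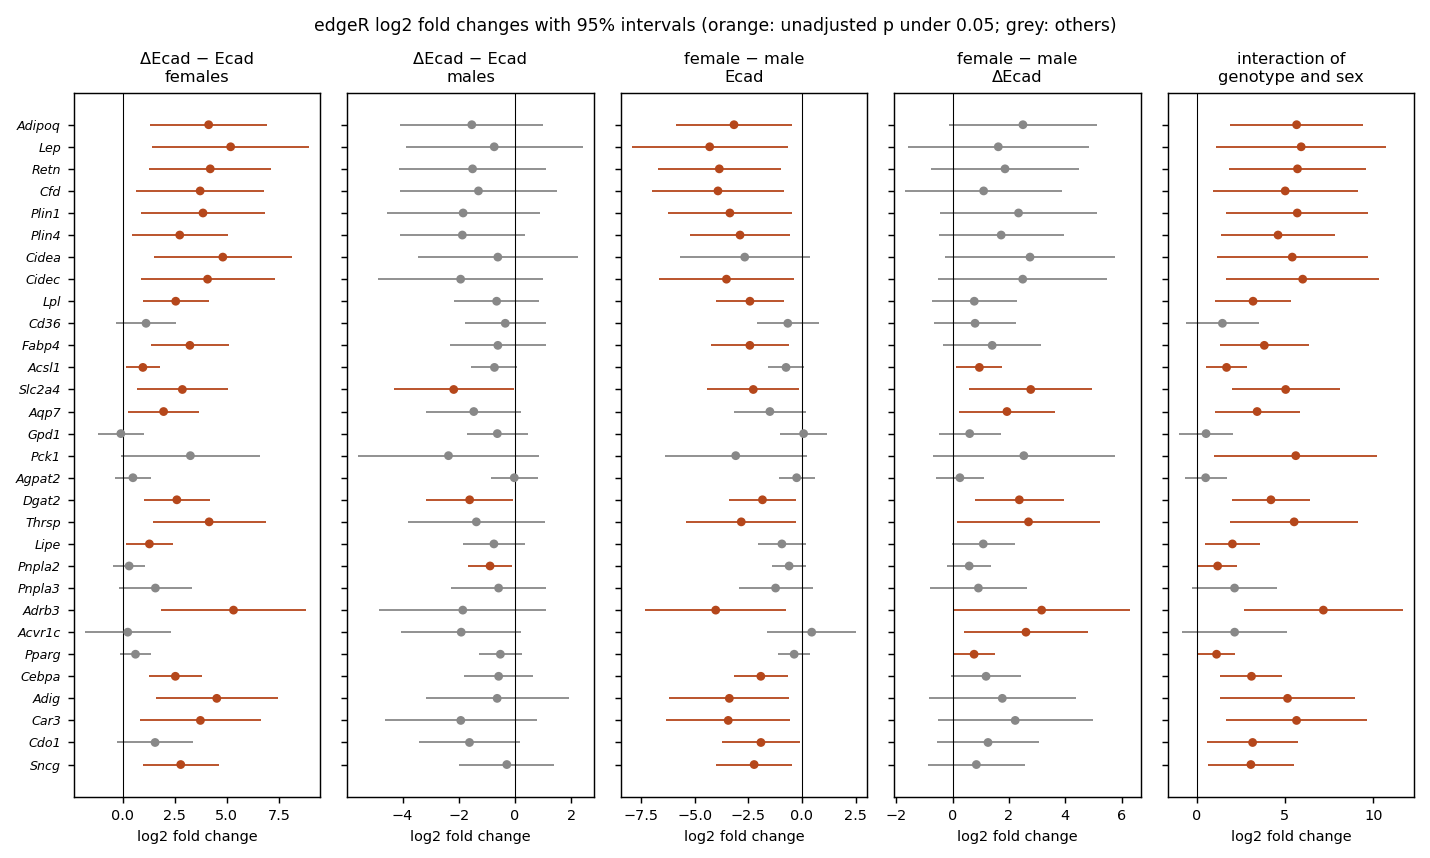
Log2 fold change (points) and 95% interval (lines) of the 30 tested genes in the 5 comparisons, from edgeR over 32 tumours, with orange for an unadjusted p under 0.05 and grey for the others; each panel has its own axis. In females 29 of 30 points lie right of 0 and in males all 30 lie left of it, 5 of which take the other sign under another setting, and for most genes the intervals span several log2 units.

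Adipokines and secreted factors were among the members that differed most between tumours. Adipoq (ENSMUSG00000022878, chromosome 16, 23146536 to 23158028) encodes adiponectin, a hormone that adipocytes secrete in quantity. For Adipoq, Ecad males ran from 0.24 to 330.5 TPM around a median of 59.3, Ecad females from 0.08 to 47.2 around 2.92, ΔEcad males from 1.73 to 94.1 around 13.5 and ΔEcad females from 0.06 to 793 around 23.2. The groups overlapped, and ΔEcad females held both the lowest and the highest tumour. Its log2 fold change was 4.12 (SE 1.38, adjusted p 0.102) between genotypes in females, -3.16 (SE 1.32, adjusted p 0.225) between sexes in Ecad and 5.66 (SE 1.84, adjusted p 0.0905) for the interaction. Lep (ENSMUSG00000059201, chromosome 6, 29060220 to 29073877) encodes leptin, the hormone that reports fat stores. Lep reached 24.2 TPM in Ecad males and 32.9 TPM in ΔEcad females but at most 0.64 TPM in Ecad females, where 6 of 8 tumours had 3 counts or fewer, and group medians were all under 0.5 TPM. In the fit, Lep gave 5.18 (SE 1.84, adjusted p 0.129) for genotype in females, -4.30 (SE 1.77, adjusted p 0.218) for sex in Ecad and 5.92 (SE 2.35, adjusted p 0.169) for the interaction.

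Retn (ENSMUSG00000012705, chromosome 8, 3655770 to 3660110) encodes resistin, a secreted peptide of mouse adipocytes. Levels of Retn were 0.1 to 104 TPM for Ecad males (median 20.0), 0 to 9.49 for Ecad females (median 0.38), 0.55 to 20.7 for ΔEcad males (median 3.19) and 0.16 to 158 for ΔEcad females (median 2.51). Ecad females were low in all but a few tumours, with 4 of 8 at 3 counts or fewer. Fold changes of Retn were 4.20 (SE 1.43, adjusted p 0.107) for genotype in females, -3.85 (SE 1.40, adjusted p 0.164) for sex in Ecad and 5.71 (SE 1.90, adjusted p 0.0978) for the interaction. Cfd (ENSMUSG00000061780, chromosome 10, 79890853 to 79892655) encodes complement factor D, also called adipsin, and reached the highest single level of any member, though its median over all tumours, 77.6 TPM, was below that of Gpd1 (126 TPM) and Pnpla2 (106 TPM). For Cfd, Ecad males ran from 4.66 to 3174 TPM around a median of 729, Ecad females from 0 to 453 around 16.1, ΔEcad males from 26.5 to 1087 around 254 and ΔEcad females from 0.36 to 3933 around 129.8. The lowest tumour, an Ecad female, had 0 counts of it. Its fold changes were 3.71 (SE 1.49, adjusted p 0.193) for genotype in females, -3.91 (SE 1.51, adjusted p 0.187) for sex in Ecad and 5.02 (SE 2.00, adjusted p 0.173) for the interaction.

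**Figure D3:**
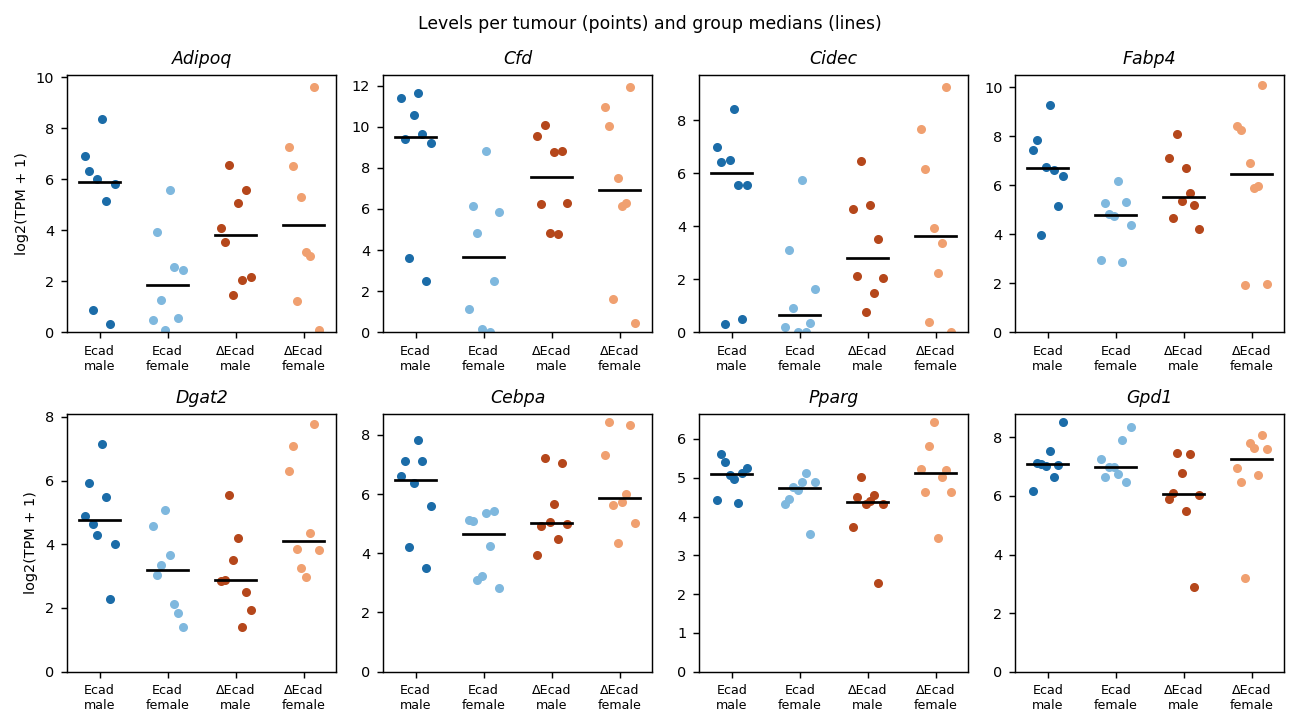
Log2(TPM + 1) of 8 genes in each tumour (points) of the 4 groups, with the group median as a line; each panel has its own axis, starting at 0. In Adipoq, Cfd and Cidec tumours spread widely in every group, whereas in Pparg and Gpd1 all but a few tumours lie close together.

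Lipid droplet proteins varied between tumours about as widely as the adipokines. Plin1 (ENSMUSG00000030546, chromosome 7, 79720218 to 79732903) encodes perilipin 1, the coat protein that gates lipolysis in adipocytes. Levels of Plin1 were 0 to 77.9 TPM for Ecad males (median 5.21), 0 to 7.11 for Ecad females (median 0.095), 0.19 to 11.3 for ΔEcad males (median 0.86) and 0.04 to 82.5 for ΔEcad females (median 3.42). In Ecad males and in ΔEcad females 1 tumour stood far above the others, the next being 9.14 and 17.3 TPM. The fit gave 3.85 (SE 1.45, adjusted p 0.158) for genotype in females, -3.36 (SE 1.42, adjusted p 0.231) for sex in Ecad and 5.70 (SE 1.96, adjusted p 0.108) for the interaction. Plin4 (ENSMUSG00000002831, chromosome 17, 56100591 to 56109803) encodes perilipin 4, which coats small nascent droplets, and shares exon bases with Hdgfl2 on the other strand, so its values are uncertain, as are those of the other members below for which such sharing is given. It ranged from 0.08 to 133 TPM with a median of 5.88, with group medians of 27.7, 0.955, 3.95 and 6.32 TPM in Ecad males, Ecad females, ΔEcad males and ΔEcad females. Its fold changes were 2.73 (SE 1.12, adjusted p 0.206) for genotype in females, -2.88 (SE 1.13, adjusted p 0.198) for sex in Ecad and 4.61 (SE 1.56, adjusted p 0.105) for the interaction.

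Cidec (ENSMUSG00000030278, chromosome 6, 113424634 to 113435760) and Cidea (ENSMUSG00000024526, chromosome 18, 67343604 to 67367785) encode CIDE proteins, which fuse lipid droplets, Cidec in white fat and Cidea in brown fat, mammary gland and sebaceous gland. For Cidec, Ecad males ran from 0.26 to 341 TPM around a median of 65.6, Ecad females from 0 to 51.9 around 0.585, ΔEcad males from 0.7 to 87.1 around 6.88 and ΔEcad females from 0 to 608 around 11.7. Ecad females again held the lowest median, though 1 of them, Ecad female 5, was above 4 of 8 Ecad males. Cidec had fold changes of 4.07 (SE 1.57, adjusted p 0.171) for genotype in females, -3.52 (SE 1.53, adjusted p 0.247) for sex in Ecad and 6.01 (SE 2.12, adjusted p 0.118) for the interaction. Cidea ranged from 0 to 103 TPM with a median of 1.95, its highest tumour was ΔEcad female 2 rather than ΔEcad female 7, and 13 of 32 tumours had 3 counts or fewer. For Cidea, the fold change was 4.80 (SE 1.63, adjusted p 0.106) for genotype in females and 5.41 (SE 2.09, adjusted p 0.159) for the interaction.

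Among genes of fatty acid uptake and activation, the fatty acid carrier of adipocytes varied most. This is Fabp4 (ENSMUSG00000062515, chromosome 3, 10204088 to 10208576). Levels of Fabp4 were 14.5 to 623 TPM for Ecad males (median 103), 6.23 to 70.1 for Ecad females (median 26.6), 17.6 to 269 for ΔEcad males (median 44.9) and 2.77 to 1098 for ΔEcad females (median 90.3). It was above 3 counts in every tumour, and the highest Ecad female lay below the median of either Ecad males or ΔEcad females. Fabp4 gave 3.22 (SE 0.91, adjusted p 0.0572) for genotype in females, -2.43 (SE 0.88, adjusted p 0.163) for sex in Ecad and 3.83 (SE 1.22, adjusted p 0.0847) for the interaction. Lpl (ENSMUSG00000015568, chromosome 8, 68880491 to 68907448) encodes lipoprotein lipase, which frees fatty acids from circulating triglyceride. For Lpl, Ecad males ran from 2.44 to 109 TPM around a median of 27.3, Ecad females from 2.41 to 15.6 around 4.4, ΔEcad males from 1.94 to 56.5 around 12.4 and ΔEcad females from 2.03 to 103 around 9.46. The lowest tumours of the 4 groups were alike, and the groups differed in how far their upper tumours reached. Its fold changes were 2.54 (SE 0.77, adjusted p 0.0733) for genotype in females, -2.42 (SE 0.77, adjusted p 0.120) for sex in Ecad and 3.19 (SE 1.06, adjusted p 0.0978) for the interaction.

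Cd36 (ENSMUSG00000002944, chromosome 5, 17781690 to 17888801), a fatty acid receptor, ranged from 6.38 to 267 TPM with a median of 33, and its group medians were 67, 18.7, 39 and 58.8 TPM in the order above. Cd36 had an unadjusted p above 0.05 in each of the 5 comparisons. Acsl1 (ENSMUSG00000018796, chromosome 8, 46471037 to 46536051) encodes an acyl-CoA synthetase, which activates fatty acids, and shares exon bases with Gm45244 on the other strand. It was present in every tumour, from 1.6 to 46.6 TPM with a median of 12.7, with group medians of 17.6, 12.3, 6.87 and 17.6 TPM. Its fold changes were 0.96 (SE 0.40, adjusted p 0.213) for genotype in females, -0.73 (SE 0.40, adjusted p 0.524) for genotype in males, 0.95 (SE 0.40, adjusted p 0.539) for sex in ΔEcad and 1.69 (SE 0.57, adjusted p 0.0993) for the interaction. Acsl1 thus differed by less than the adipokines did, but with a smaller error.

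Genes of the glycerol backbone and of triglyceride synthesis included members that varied with Adipoq and others that did not. Slc2a4 (ENSMUSG00000018566, chromosome 11, 69942539 to 69948188) encodes GLUT4, the insulin-responsive glucose transporter of fat and muscle. Levels of Slc2a4 were 1.91 to 54.1 TPM for Ecad males (median 12.5), 0.11 to 14.9 for Ecad females (median 0.535), 0.44 to 9.99 for ΔEcad males (median 1.88) and 0.14 to 76.9 for ΔEcad females (median 3.68). Between genotypes, it gave 2.86 (SE 1.07, adjusted p 0.155) in females and -2.18 (SE 1.04, adjusted p 0.483) in males. Between sexes, Slc2a4 gave -2.27 (SE 1.04, adjusted p 0.277) in Ecad and 2.77 (SE 1.06, adjusted p 0.503) in ΔEcad, and its interaction was 5.04 (SE 1.49, adjusted p 0.0672). Dgat2 (ENSMUSG00000030747, chromosome 7, 99153658 to 99182719) encodes the acyltransferase of the last step of triglyceride synthesis. For Dgat2, Ecad males ran from 3.83 to 142 TPM around a median of 26, Ecad females from 1.63 to 32.6 around 8.24, ΔEcad males from 1.66 to 45.9 around 6.29 and ΔEcad females from 6.92 to 218 around 16.4. No tumour lacked it. Genotype fold changes were 2.59 (SE 0.78, adjusted p 0.0697) in females and -1.61 (SE 0.75, adjusted p 0.476) in males, and sex fold changes -1.84 (SE 0.76, adjusted p 0.216) in Ecad and 2.37 (SE 0.77, adjusted p 0.484) in ΔEcad. The interaction of Dgat2, 4.21 (SE 1.08, adjusted p 0.0526), had the smallest adjusted p of any member in that comparison, and over 38 alternatives it ranged from 0.00259 with DESeq2 to 0.314.

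Thrsp (ENSMUSG00000035686, chromosome 7, 97412938 to 97417730), a lipogenic nuclear protein also called Spot 14, ranged from 0 to 150.1 TPM with a median of 2.54, and its group medians were 6.36, 0.595, 1.83 and 5.59 TPM. Thrsp gave 4.15 (SE 1.33, adjusted p 0.0870) for genotype in females, -2.83 (SE 1.25, adjusted p 0.255) for sex in Ecad, 2.70 (SE 1.24, adjusted p 0.555) for sex in ΔEcad and 5.52 (SE 1.76, adjusted p 0.0845) for the interaction. Aqp7 (ENSMUSG00000028427, chromosome 4, 41033074 to 41048139) encodes the glycerol channel of adipocytes. It was low throughout, from 0.07 to 8.13 TPM with a median of 0.595, with fold changes of 1.96 (SE 0.83, adjusted p 0.227) for genotype in females, 1.93 (SE 0.84, adjusted p 0.539) for sex in ΔEcad and 3.43 (SE 1.17, adjusted p 0.107) for the interaction. Pck1 (ENSMUSG00000027513, chromosome 2, 173153048 to 173159273) encodes phosphoenolpyruvate carboxykinase, which feeds glyceroneogenesis in fat. Pck1 ranged from 0 to 86.4 TPM with a median of 0.745, 5 of 8 Ecad females had 3 counts or fewer, and its interaction was 5.61 (SE 2.26, adjusted p 0.176).

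Gpd1 (ENSMUSG00000023019, chromosome 15, 99717515 to 99725005), the glycerol-3-phosphate dehydrogenase, shares exon bases with Gm16537 on the other strand. Levels of Gpd1 were 71.6 to 367 TPM for Ecad males (median 135), 87.8 to 326 for Ecad females (median 126), 6.42 to 175 for ΔEcad males (median 66.4) and 8.16 to 272 for ΔEcad females (median 157). The 2 lowest tumours were ΔEcad male 7 and ΔEcad female 3, the libraries that stood apart in melanocytic and in endothelial and red blood cell markers. Every other tumour had at least 43.7 TPM, and Ecad females, low in most members, were at the level of Ecad males. Agpat2 (ENSMUSG00000026922, chromosome 2, 26593057 to 26604417), an acyltransferase that makes phosphatidic acid, shares exon bases with Egfl7 on the other strand. Its levels ran from 14.6 to 148 TPM with a median of 48.9, with group medians of 55.1, 47.7, 48.9 and 51.9 TPM. Gpd1 and Agpat2 had unadjusted p above 0.05 in all 5 comparisons, and their 95% intervals for genotype in females were -1.18 to 0.99 and -0.36 to 1.33 on the log2 scale.

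Lipolysis genes ranged from a receptor at 3 counts or fewer in 13 of 32 tumours to an enzyme present in every tumour. Adrb3 (ENSMUSG00000031489, chromosome 8, 27225776 to 27250616) encodes the β3-adrenergic receptor, which starts lipolysis in mouse adipocytes, and shares exon bases with Gm45470 on the other strand. For Adrb3, Ecad males ran from 0.02 to 27.7 TPM around a median of 2.58, Ecad females from 0 to 2.22 around 0.035, ΔEcad males from 0 to 4.52 around 0.21 and ΔEcad females from 0.04 to 43.6 around 0.835. In Ecad females, 6 of 8 tumours had 3 counts or fewer. Its genotype fold change in females was 5.32 (SE 1.69, adjusted p 0.0862), its sex fold changes were -4.02 (SE 1.60, adjusted p 0.204) in Ecad and 3.16 (SE 1.52, adjusted p 0.564) in ΔEcad, and its interaction was 7.18 (SE 2.21, adjusted p 0.0771). Lipe (ENSMUSG00000003123, chromosome 7, 25379527 to 25398710) encodes hormone-sensitive lipase and shares exon bases with 4732471J01Rik on the other strand. Lipe ranged from 3.55 to 90.4 TPM with a median of 12.8, with group medians of 16.4, 10.4, 10.6 and 16.1 TPM, and gave 1.28 (SE 0.54, adjusted p 0.228) for genotype in females and 2.03 (SE 0.76, adjusted p 0.148) for the interaction.

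Pnpla2 (ENSMUSG00000025509, chromosome 7, 141455198 to 141460743) encodes adipose triglyceride lipase, which takes the first step of lipolysis in most tissues. Levels of Pnpla2 were 84.6 to 297 TPM for Ecad males (median 157), 54.6 to 176 for Ecad females (median 97.6), 34.7 to 152 for ΔEcad males (median 71.8) and 38.7 to 319.8 for ΔEcad females (median 107). The lowest tumour still had 34.7 TPM, and Ecad males had the highest median. Pnpla2 had the smallest p of the members in males, at -0.89 (SE 0.38, adjusted p 0.448), and an interaction of 1.19 (SE 0.54, adjusted p 0.235). Pnpla3 (ENSMUSG00000041653, chromosome 15, 84167837 to 84187236), a related lipase of lipid droplets, shares exon bases with Gm49513 on the same strand. It ranged from 0.21 to 42.7 TPM with a median of 5.02, with an unadjusted p above 0.05 in every comparison. Acvr1c (ENSMUSG00000026834, chromosome 2, 58267453 to 58357895) encodes ALK7, a receptor that restrains lipolysis in adipocytes, and shares exon bases with Gm13544 on the other strand. Acvr1c was at most 12.2 TPM, with group medians of 1.32, 1.4, 0.4 and 0.895 TPM, and gave -1.91 (SE 1.05, adjusted p 0.524) for genotype in males and 2.60 (SE 1.07, adjusted p 0.529) for sex in ΔEcad.

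The transcription factors differed from each other. Cebpa (ENSMUSG00000034957, chromosome 7, 35119293 to 35121928) encodes C/EBPα, which with PPARγ maintains the adipocyte programme and is also used in keratinocytes, sebocytes and myeloid cells. It shares exon bases with Gm45091 on the other strand. For Cebpa, Ecad males ran from 10.3 to 226 TPM around a median of 88.9, Ecad females from 6.07 to 42.2 around 25.3, ΔEcad males from 14.2 to 146 around 31.6 and ΔEcad females from 19.2 to 343 around 57.8. Ecad females were lowest, although the 4 highest of the 8 overlapped ΔEcad females. It rose in ΔEcad against Ecad females by 2.52 (SE 0.63, adjusted p 0.0452) on the log2 scale, with a 95% interval of 1.24 to 3.81. This call was a narrow one: Cebpa was called under 21 of 40 settings, its adjusted p ranged from 0.00109 to 0.376 over them, and it was 0.0503 without ΔEcad male 2 and 0.0855 without ΔEcad female 7. Its sex fold change in Ecad was -1.92 (SE 0.61, adjusted p 0.121) and its interaction 3.11 (SE 0.86, adjusted p 0.0600).

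Pparg (ENSMUSG00000000440, chromosome 6, 115360951 to 115490399) encodes PPARγ, the nuclear receptor that drives adipocyte differentiation and is also expressed in sebocytes and macrophages. Levels of Pparg were 19.5 to 48.2 TPM for Ecad males (median 33.3), 10.6 to 33.5 for Ecad females (median 25.4), 3.86 to 31.5 for ΔEcad males (median 19.7) and 9.87 to 85.8 for ΔEcad females (median 33.7). It was present in all 32 tumours, also in those where Adipoq, Plin1 and Cidec were close to 0. ΔEcad male 7 was lowest and ΔEcad female 4 highest. Pparg gave 0.76 (SE 0.37, adjusted p 0.564) for sex in ΔEcad and 1.13 (SE 0.52, adjusted p 0.251) for the interaction, and for genotype in females its 95% interval was -0.15 to 1.37. Adig (ENSMUSG00000044405, chromosome 2, 158502612 to 158508198) encodes adipogenin, a small protein of adipocyte lipid droplets. For Adig, Ecad males ran from 0 to 61.9 TPM around a median of 12, Ecad females from 0.06 to 8.5 around 0.305, ΔEcad males from 0.33 to 26.3 around 3 and ΔEcad females from 0.09 to 165 around 3.92. Its tumours followed Adipoq, and it gave 4.51 (SE 1.43, adjusted p 0.0855) for genotype in females, -3.38 (SE 1.36, adjusted p 0.208) for sex in Ecad and 5.15 (SE 1.86, adjusted p 0.129) for the interaction.

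Ucp1 (ENSMUSG00000031710, chromosome 8, 83290352 to 83298452), the uncoupling protein that defines brown and beige fat, was the 1 member not tested, since it did not pass the filter on low counts. It was at 0 counts in 19 tumours, at 3 counts or fewer in 25, and at most 10.3 TPM, in Ecad female 2. The highest level in another tumour was 1.64 TPM, in ΔEcad female 4. Both tumours stood apart from their groups in Ucp1 but not in Adipoq, which was at 14.5 TPM in Ecad female 2 and 38.6 TPM in ΔEcad female 4.

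The 3 other adipose-rich genes varied with the adipokines. Car3 (ENSMUSG00000027559, chromosome 3, 14863512 to 14872523) encodes carbonic anhydrase 3, abundant in fat and in slow muscle. Levels of Car3 were 17.7 to 1182 TPM for Ecad males (median 114), 0 to 70.7 for Ecad females (median 2.07), 3.16 to 232 for ΔEcad males (median 20.6) and 0.03 to 834 for ΔEcad females (median 54.5). The highest Ecad female lay below the median Ecad male. Car3 gave 3.73 (SE 1.43, adjusted p 0.167) for genotype in females, -3.43 (SE 1.41, adjusted p 0.216) for sex in Ecad and 5.66 (SE 1.94, adjusted p 0.108) for the interaction. Cdo1 (ENSMUSG00000033022, chromosome 18, 46713193 to 46728395), the cysteine dioxygenase of taurine synthesis, ranged from 1.7 to 270.2 TPM with a median of 16.7, with group medians of 65.4, 7.28, 19 and 14.4 TPM. Its fold changes were -1.91 (SE 0.89, adjusted p 0.284) for sex in Ecad and 3.17 (SE 1.25, adjusted p 0.168) for the interaction. Sncg (ENSMUSG00000023064, chromosome 14, 34370274 to 34374789), γ-synuclein, is expressed in fat and in peripheral neurons. Sncg ranged from 0.66 to 155 TPM with a median of 9.24, with group medians of 14.6, 4.07, 13.6 and 22.5 TPM, and gave 2.78 (SE 0.89, adjusted p 0.0862) for genotype in females, -2.23 (SE 0.87, adjusted p 0.194) for sex in Ecad and 3.07 (SE 1.20, adjusted p 0.164) for the interaction.

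Each member was then related to Adipoq over the 32 tumours, on log2 CPM, with a two-sided permutation test of 100000 permutations adjusted over the 30 relations. For 25 of 30 members the adjusted p of Pearson's r was under 0.05, always with a positive r. The relation was not computed over all tested genes, so no share of them stands beside this count. Plin1 (r = 0.95, Spearman's rho = 0.94), Cidec (r = 0.94, rho = 0.95), Adig (r = 0.93, rho = 0.94), Pck1 (r = 0.93, rho = 0.92) and Retn (r = 0.92, rho = 0.93) were closest, each with a permutation p of 1e-05, the smallest these permutations can give (adjusted 1.58e-05). The other 20 that passed ran from r = 0.37 for Pnpla3 to r = 0.89 for Cfd. Gpd1 (r = 0.08, permutation adjusted p 0.664), Pparg (r = 0.15, permutation adjusted p 0.440), Ucp1 (r = 0.24, permutation adjusted p 0.192), Acvr1c (r = 0.26, permutation adjusted p 0.171) and Agpat2 (r = 0.30, permutation adjusted p 0.109) did not pass. Cebpa, at r = 0.76, and Pparg, at r = 0.15, thus stood at different places in this order.

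The relations were repeated with the group means removed and without single tumours. With group means removed, r was 0.94 for Plin1, 0.93 for Cidec and 0.73 for Cebpa, and 24 of 30 members passed. Without the 2 tumours farthest from the Adipoq median, ΔEcad female 8 and Ecad female 4, r was 0.94, 0.92 and 0.75, and 24 passed. Pnpla3 was the exception in both, at 0.30 and 0.26. Within the 4 groups of 8, as a description, Plin1 had r of 0.97 for Ecad males, 0.85 for Ecad females, 0.88 for ΔEcad males and 1.00 for ΔEcad females, and Pparg had r of -0.32, 0.44, -0.16 and 0.33 in the same order. Some members related to Adipoq over all tumours were not so within each group: Dgat2 had r of -0.39 for Ecad females, Cebpa 0.29 for Ecad females, Cd36 0.11 for Ecad females and 0.07 for ΔEcad males, Acsl1 0.07 and 0.02 for the same groups, and Pnpla2 0.01 for ΔEcad males. Leaving out ΔEcad male 2 left 25 members that passed. Without ΔEcad male 7 or ΔEcad female 3, steps added after the data were seen, 25 and 24 passed, Pnpla3 being lost in the latter (r = 0.36, permutation adjusted p 0.0543). For Gpd1, whose lowest values were in these 2 libraries, r was 0.18 and -0.02 without them. The total count of a tumour was itself related to Adipoq, at r = -0.36 and rho = -0.36 (permutation p 0.0414 and 0.0433), at r = -0.31 with group means removed, and at r = -0.33 without ΔEcad female 3 (permutation p 0.0679). This relation was chosen after the data were seen.

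**Figure D4:**
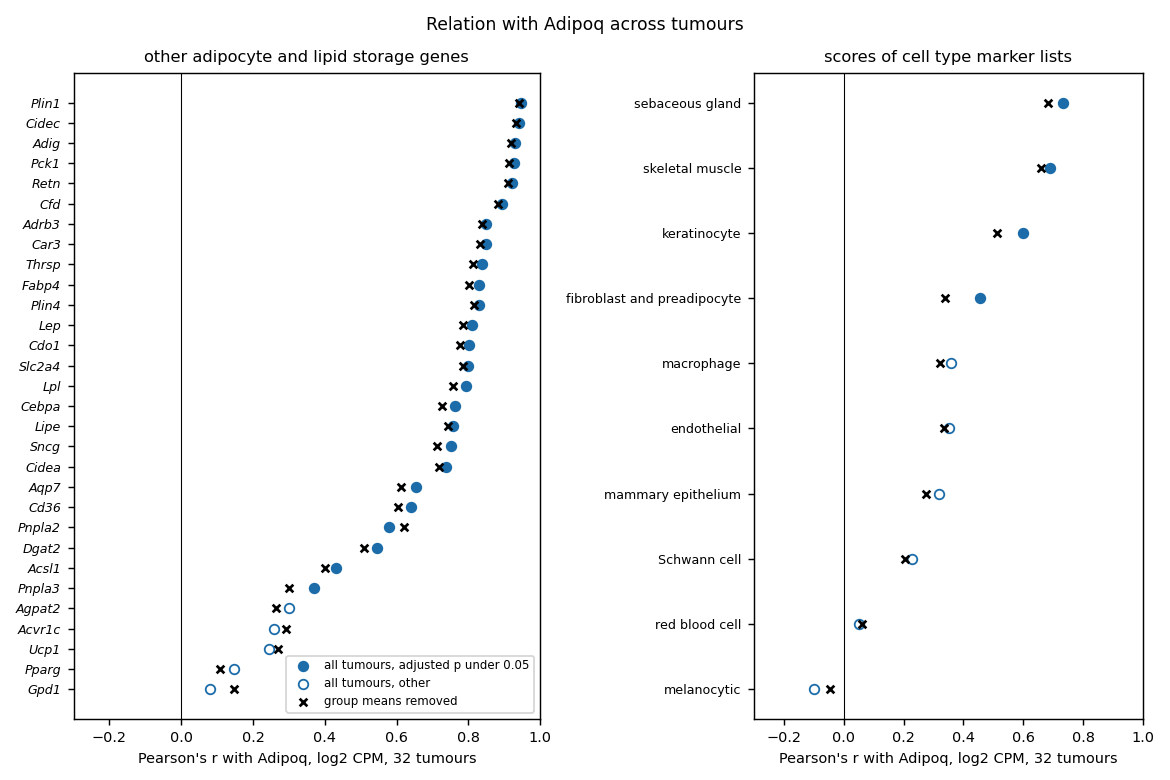
Pearson's r of each of the 30 other genes (left) and of the scores of 10 cell type marker lists (right) with Adipoq over 32 tumours, on log2 CPM; filled circles passed an adjusted p under 0.05, open circles did not, and crosses give r with group means removed. Plin1, Cidec, Adig, Pck1 and Retn lie above 0.9, and Gpd1 and Pparg lie near the melanocytic and red blood cell scores, close to 0.

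Markers of other tissues moved with Adipoq. A score was the mean log2 CPM of a list, and p-values were adjusted over 10 lists. The sebaceous gland score (r = 0.73, rho = 0.74, permutation adjusted p 0.0001), the skeletal muscle score (r = 0.69, rho = 0.70, permutation adjusted p 0.0001), the keratinocyte score (r = 0.60, rho = 0.67, permutation adjusted p 0.00157) and the fibroblast and preadipocyte score (r = 0.45, rho = 0.58, permutation adjusted p 0.0220) passed. The macrophage score (r = 0.36, permutation adjusted p 0.0705), the endothelial score (r = 0.35, permutation adjusted p 0.0705), the mammary epithelium score (r = 0.32, permutation adjusted p 0.107), the Schwann cell score (r = 0.23, permutation adjusted p 0.265), the red blood cell score (r = 0.05, permutation adjusted p 0.785) and the melanocytic score (r = -0.10, permutation adjusted p 0.681) did not. By Spearman's rho the macrophage (rho = 0.41, permutation adjusted p 0.0285), endothelial (rho = 0.53, permutation adjusted p 0.00386), mammary (rho = 0.38, permutation adjusted p 0.0386) and Schwann cell scores (rho = 0.47, permutation adjusted p 0.0114) passed as well. Without the 2 outermost tumours, 6 scores passed by r, and 4 did without ΔEcad male 2. The Schwann cell score passed as well without ΔEcad male 7 (r = 0.47, permutation adjusted p 0.017), and the endothelial score without ΔEcad female 3 (r = 0.46, permutation adjusted p 0.0203). The melanocytic score, lowest in ΔEcad male 7, had r = -0.01 without it. With group means removed, the sebaceous gland, skeletal muscle and keratinocyte scores passed, at r = 0.68, 0.66 and 0.51.

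The muscle, keratinocyte and sebaceous scores were spread unevenly, with widest gaps of 16.7% to 18.8% of the score's range. Relations were therefore repeated on either side of the widest gap of each of the 10 scores, a step added after the data were seen, with p-values adjusted over 20 relations. Among the 11 tumours below the gap in muscle markers, r with Adipoq was -0.05 (permutation adjusted p 0.921), and among the 21 above it r was 0.57 (permutation p 0.00675, adjusted 0.0675). For keratinocyte markers r was 0.11 among 14 tumours and 0.55 among 18 (permutation adjusted p 0.879 and 0.115), and for sebaceous markers -0.11 among 17 and 0.46 among 15 (permutation adjusted p 0.879 and 0.349). Some of these markers were often at 3 counts or fewer (Ivl in 14 tumours, Krt79 in 11, Pvalb in 10), whereas Sfn, Soat1 and Mylpf never were. Low scores thus rest in part on counts at the floor, and r below a gap cannot show that a relation is absent. By r, 1 of the 20 relations passed, that of the 25 tumours above the gap in endothelial markers (r = 0.59, permutation adjusted p 0.0422). By rho 4 passed, all above the gap: muscle (rho = 0.60, permutation adjusted p 0.0291), endothelial (rho = 0.56, permutation adjusted p 0.0291), keratinocyte (rho = 0.61, permutation adjusted p 0.0423) and fibroblast markers (rho = 0.70, permutation adjusted p 0.024). The widest gaps of the endothelial and fibroblast scores were only 2.63% and 6.46% of the range, so these cuts mark no clear gap. Below its cut, the endothelial score had rho = 0.79 among 7 tumours (permutation adjusted p 0.153). Passing only above a gap thus depends in part on the number of tumours on that side. ΔEcad female 4, with 38.6 TPM of Adipoq, had a summed muscle level of 4.42 TPM and a summed keratinocyte level of 16.0 TPM.

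**Figure D5:**
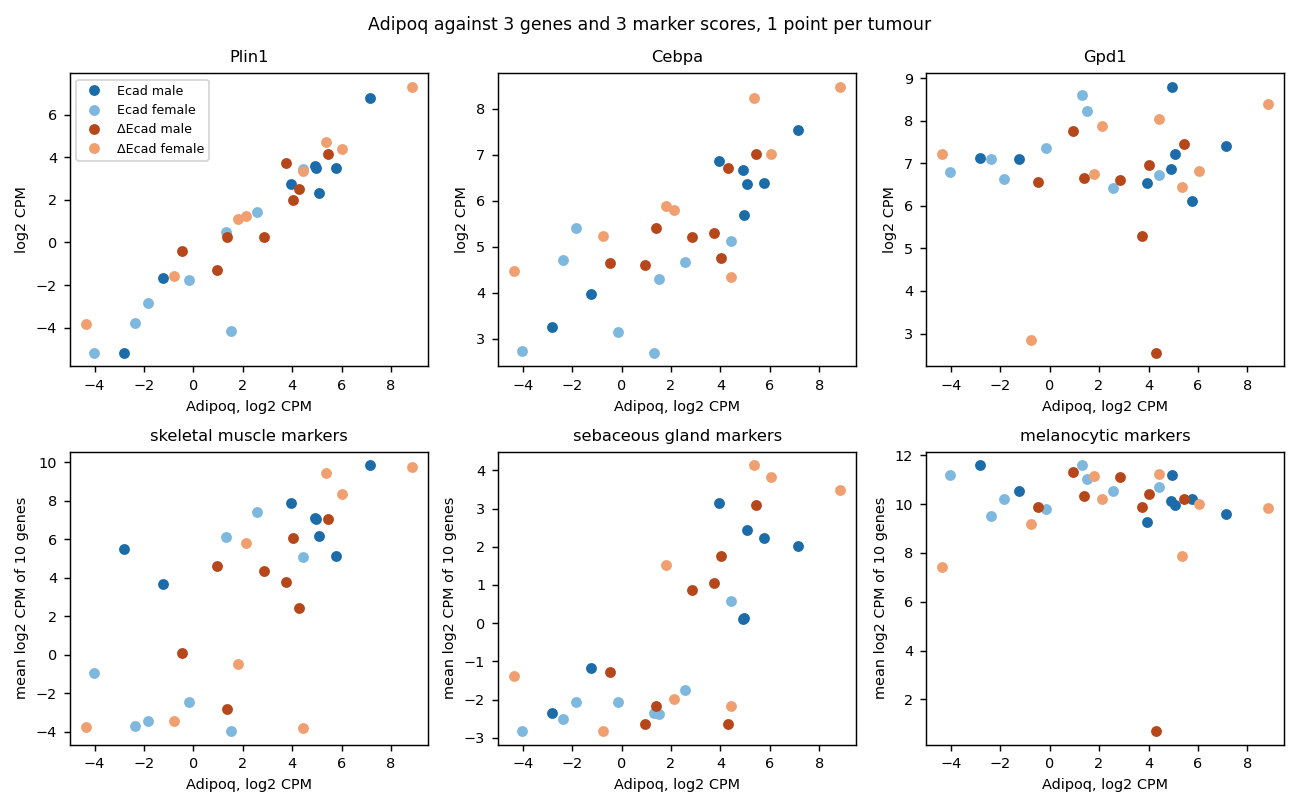
Adipoq (x axis, log2 CPM) against Plin1, Cebpa and Gpd1 (log2 CPM) and against the mean log2 CPM of 10 skeletal muscle, sebaceous gland and melanocytic markers, 1 point per tumour coloured by group. Plin1 follows a line over the whole range, Gpd1 shows no slope apart from 2 low tumours, the muscle and sebaceous scores are spread unevenly, with many tumours near their low end, and the melanocytic score is flat with ΔEcad male 7 far below.

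The group medians of the members' summed share ran from Ecad males over ΔEcad females and ΔEcad males to Ecad females, and those of the muscle and sebaceous lists had the same order. The 10 skeletal muscle markers summed to 514 to 19888 TPM for Ecad males (median 2909), 2.96 to 4733 for Ecad females (median 16.7), 3.27 to 2975 for ΔEcad males (median 445) and 4.42 to 28395 for ΔEcad females (median 1170). The 10 keratinocyte markers had medians of 5129, 8.19, 499.7 and 6597 TPM in these groups, and the 10 sebaceous gland markers 172, 29.0, 47.1 and 153 TPM. Ecad females had the lowest median in each of the 3 lists. All groups overlapped in each list. The part of muscle, epidermal and sebaceous tissue in the differences of the members between groups was not tested. The 10 fibroblast and preadipocyte markers had medians of 922, 298, 1093 and 1097 TPM. Of the mammary epithelium markers, Csn2 was at 0 in all 32 tumours, and Csn1s1 and Wap were at 3 counts or fewer in 32 and 30.

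Other genes of lipid storage were taken from 7 lists that hold 98 distinct genes, of which 95 were tested. None was called in any comparison by edgeR, and DESeq2 called 10 of 98 in ΔEcad against Ecad females, 0 in males, 7 and 0 between the Ecad and the ΔEcad sexes and 10 in the interaction, against the shares of all genes it called, given above. At an unadjusted p under 0.05, 18 of 95 were higher and 2 lower in ΔEcad than Ecad females, where 11.2% of all genes were higher and 4.13% lower. In males 3 were higher and 2 lower, against 7.19% and 3.05% of genes. Between the Ecad sexes 5 were higher and 15 lower in females, against 5.71% and 10.3%, and between the ΔEcad sexes 12 were higher and 4 lower, against 3.32% and 5.49%. In the interaction 19 were higher and 4 lower, against 10.7% and 6.94%. Counts of 1 to 4 genes of a list are given below at this unadjusted p, which none kept after adjustment, and shares such as 2 of 16 or 2 of 13 are near those of all genes. Genes behind these counts are named after their values were seen. Of 13 genes of fatty acid synthesis, 2 were higher in ΔEcad females than Ecad females (Elovl6 and Scd1), and between the ΔEcad sexes 4 were higher in females (Fasn, Elovl6, Acaca and Scd1). Of 15 tested secreted factors and receptors of fat, 4 were higher in ΔEcad than Ecad females (Rbp4, Orm1, Nnat and Sfrp5), and between the Ecad sexes these 4 were lower and Irs2 higher in females. Of 18 adipogenic regulators, 3 were higher in ΔEcad than Ecad females (Ebf1, Klf5 and Ebf2), and in males 0 were higher or lower. Of 11 tested brown and beige genes, 3 were higher in ΔEcad than Ecad females (Elovl3, Dio2 and Kng2), and of 10 tested lipid droplet proteins 3 were (Fitm2, Fitm1 and Plin5). Of 16 genes of uptake and lipolysis control, 2 were higher in ΔEcad than Ecad females (Aqp3 and Fabp5), and of 13 genes of triglyceride synthesis and breakdown 1 was higher (Lpin3) and 2 lower (Lpin2 and Agpat3). Elovl3 and Mogat1 also stand in the sebaceous gland list, Gpihbp1 in the endothelial and Cited1 in the mammary epithelium list.

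The pathway genes with the smallest p in each comparison were as follows. In females, Ebf1, an early adipocyte and B cell factor, gave 2.42 (SE 0.67, adjusted p 0.0549) between genotypes, and Rbp4, the carrier of retinol, gave 4.80 (SE 1.43, adjusted p 0.0686). In males, Mogat2, an acyltransferase of triglyceride synthesis, gave -5.45 (SE 1.83, adjusted p 0.392) and Plin3, a perilipin of most tissues, gave 0.74 (SE 0.30, adjusted p 0.439). Between the Ecad sexes, Orm1, an acute-phase glycoprotein, gave -4.53 (SE 1.33, adjusted p 0.108) and Kng2, a kininogen, gave -1.92 (SE 0.63, adjusted p 0.129). Between the ΔEcad sexes, the fatty acid synthase Fasn gave 1.13 (SE 0.31, adjusted p 0.484) and the lysosomal lipase Lipa gave -1.52 (SE 0.48, adjusted p 0.484). For the interaction, Klf5, a regulator of early adipogenesis that keratinocytes also express, gave 4.01 (SE 1.07, adjusted p 0.0546) and Mogat2 gave 8.55 (SE 2.45, adjusted p 0.0615). None had an edgeR adjusted p under 0.05.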

How the data were processed

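RNA of 32 tumours was measured by paired-end sequencing of stranded polyadenylated libraries. The authors mapped reads with STAR to mm10 (GRCm38.p5) with GENCODE M13 and checked them with FastQC 0.11.5, and they deposited raw counts per gene and TPM, which scales by gene length and by the total of a tumour. They used batch correction where applicable, without saying whether it applied here, and whether counting used the strand was not given in the sources used here. Per-sample columns left unused numbered 0. GENCODE M21 (GRCm38) supplied coordinates and a symbol for 50376 of 50600 genes.

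The deposited counts were tested with edgeR 4.0.16 (quasi-likelihood, robust, TMM, filterByExpr by group, two-sided, Benjamini-Hochberg), with 4 group coefficients over 32 tumours; the common dispersion was 0.624. SE was derived from the F statistic, and log2 CPM used a prior count of 1. The test and the relations were tested on simulated data. For the test, genes were drawn independently with the common dispersion, so genes that spread widely and vary together, as most members do, were not covered. Alternatives used DESeq2 1.42.0, limma 3.58.1 (voom, or log2(TPM + 1) with a pseudocount of 1), other size factors, no filter, only the tumours compared, the replicate number as a block, and each tumour left out.

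Groups came from the labels. Total counts per tumour were at least 24036333. Counts of 3 or fewer were taken as the floor, and this covers counting error only, since reads carry no molecular identifiers. Nothing says that tumours of a group came from separate mice beyond their labels, so p-values measure the spread between these samples. The highest correlation of any pair of tumours, on log2 CPM with group means kept, was 0.963, and none was treated as a duplicate. Members, lists, tests and the rule for named genes were chosen with earlier results of these data known. All 31 members were named. Fold changes were printed for members called or with an unadjusted p under 0.05, and for the 5 smallest p where these were fewer, and from the pathway lists for the 2 smallest p of each comparison. Scripts ran on matplotlib 3.10.9, scipy 1.17.1, pandas 2.3.3 and numpy 2.4.6 under Python 3.11.15, and on R 4.3.3.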

Additional observations from a re-analysis of the deposited data

Results flagged for a closer look

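In 124 sets of 8 tumours (31 genes in 4 groups), 7 values lay so far from the nearest other tumour, relative to the range of their group, that they passed the 95% limit of Dixon's test on log2 CPM. Chance gives about 1 in 20 sets. Ucp1 was high in Ecad female 2 (2.32, from 131 counts) and in ΔEcad female 4 (0.15, from 38 counts), and most other tumours of these groups had 0 counts of it. Its value in ΔEcad male 7 (-4.29) came from 1 count, below the floor of 3 counts, with the other 7 ΔEcad males at 0, so that 1 read was enough to pass. Cd36 was high in Ecad female 6 (8.07), and Aqp7 was high in Ecad male 5 (2.84), the tumour in which 6 members were highest. Gpd1 was low in ΔEcad female 3 (2.84) and Pparg was low in ΔEcad male 7 (1.81), the 2 libraries whose marker levels stood apart. None of the members passed the edgeR test of the interaction at an adjusted p under 0.05.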

How the results depend on the processing

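Of the 150 fold changes of 30 members in 5 comparisons, 20 took the other sign under at least 1 setting: 3 in females, 5 in males (Lep up to 1.84), 2 between the Ecad sexes, 10 between the ΔEcad sexes (Car3 down to -1.01, Cfd to -1.17, Lep to -0.91) and 0 in the interaction. Of the 77 printed above, 1 did: Thrsp between the ΔEcad sexes was -0.10 with limma voom. With Adipoq, Gpd1 had r = -0.0157 and the red blood cell score r = -0.0905 without ΔEcad female 3, against 0.1813 and 0.0827 without ΔEcad male 7. Of the scores, mammary epithelium turned to r = -0.0651 on log2(TPM + 1). The cause was not tested in these cases. Called members in females, 1 by the test reported, were 0 with only the tumours compared, with the replicate block, with limma voom and with limma on log2(TPM + 1), and 16 with DESeq2. Called members in the interaction were 1 with RLE size factors and 17 with DESeq2, and between the Ecad sexes 7 with DESeq2. Members at an unadjusted p under 0.05 and higher were 5 with voom and 10 on log2(TPM + 1) in females, 9 with voom in the interaction, and between the ΔEcad sexes 2 with the replicate block, 1 with voom, 4 on log2(TPM + 1) and 14 with DESeq2. Members lower in males were 7 with only the tumours compared, 7 on log2(TPM + 1) and 8 with DESeq2. Over all genes in males, 72 were higher and 1381 lower on log2(TPM + 1), against 1273 and 541. Called genes in females were 1523 of 33460 with DESeq2, run without the filter, against 213 of 17717. Apart from these and the DESeq2 calls given earlier, shares of all genes under the other settings are not given here.

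With 1 tumour left out, called members ranged from 0 to 8 in females (0 for 15 of 32 tumours, 8 without Ecad female 5) and from 0 to 9 in the interaction (9 without Ecad female 5, 7 without ΔEcad male 3), and were 0 throughout in the other comparisons. Shares of all genes in these fits are not given here, so the counts do not set the members apart from other genes. Members higher at an unadjusted p under 0.05 ranged from 10 (without ΔEcad female 7) to 23 in females, from 2 (without ΔEcad female 7) to 14 (without ΔEcad male 3) between the ΔEcad sexes and from 18 to 26 in the interaction. Members lower ranged from 0 (without ΔEcad male 2 or 7) to 5 (without ΔEcad male 3) in males and from 6 (without Ecad male 5) to 20 (without Ecad male 3) between the Ecad sexes. Members with the highest mean in ΔEcad females, 23 of 31, were 7 without ΔEcad female 7 and 6 by medians. The tumours share only a number across groups. On log2 CPM with the group mean of each gene removed, correlations of same-numbered tumours ran from -0.55 to 0.42, so the replicate block is not a pairing, and at most 3 of 16 correlated best with their own number. Depth did not limit the abundant members, but Lep, Adrb3 and Cidea had 3 counts or fewer in 13 or 14 of 32 tumours.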

Other observations

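Outside the members, 23 of 98 other lipid storage genes were related to Adipoq across the 32 tumours at an adjusted p under 0.05, a set of relations chosen after the data were seen and adjusted over 98. No share over all tested genes was computed beside this count. The 17 with a positive r included Mlxipl, the carbohydrate-responsive regulator of lipogenesis (r = 0.77, rho = 0.84), Plin5, a perilipin of oxidative tissue and muscle (r = 0.77, rho = 0.80), and Rbp4 (r = 0.76, rho = 0.79), each with a permutation adjusted p of 0.000163. The 6 with a negative r were Acsl4 (r = -0.67, rho = -0.66, permutation adjusted p 0.000163), Apln (r = -0.61), Acly (r = -0.57), Scd2 (r = -0.54), Irs2 (r = -0.49) and Gk (r = -0.45), so the enzymes Acly and Scd2 of fatty acid synthesis ran opposite to Scd1 (r = 0.56, rho = 0.49, permutation adjusted p 0.00702). With group means removed, 12 positive and 4 negative relations passed, and without the 2 tumours farthest from the Adipoq median 21 positive and 5 negative ones did.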
